A study of Mus musculus with 8 samples.

Results

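A set of 10 immediate early transcription factor genes were followed in group 2 innate lymphoid cells (ILC2s) of mouse visceral fat: Egr1, Egr2, Egr3, Fos, Fosb, Fosl2, Jun, Junb, Jund and Nr4a1. They were chosen by gene symbol, with earlier results of these data known. All 10 were found among the 39527 genes of the deposited table. All 10 had values of 1 FPKM or more in at least 4 libraries and entered the test, which covered 11483 genes. FPKM counts fragments per kilobase of transcript and corrects for the size of the library.

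The study compared ILC2s sorted from epididymal visceral adipose tissue (VAT) of mice on a normal diet with those of mice on a high-fat diet. All animals were wild-type C57BL/6 males aged 14 weeks, and each diet was given for 8 weeks from an age of 6 weeks. Each diet had 4 libraries, called N1 to N4 for the normal diet and H1 to H4 for the high-fat diet. The labels do not say whether a library came from 1 mouse or a pool, so p-values measure only the spread between these libraries.

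Immediate early genes are switched on within minutes of a stimulus, without prior protein synthesis, by transcription factors already present in the cell. Kinases of the MAPK pathway act on ternary complex factors bound beside serum response factor at CArG boxes, and calcium and cyclic AMP act on CREB at cyclic AMP response elements. EGR proteins bind GC-rich sites through zinc fingers, FOS and JUN proteins pair to form AP-1, and Nr4a1 encodes an orphan nuclear receptor that responds to antigen receptor and other activating signals. ILC2s lack an antigen receptor and respond to alarmin cytokines such as IL-33. Enzymatic digestion and sorting of a tissue are also known to induce these genes.

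Egr2 and Egr3 fell on the high-fat diet, and the other 8 genes did not pass the test. Mean Egr2 went from 34.4 ± 5.84 to 18.5 ± 4.73 FPKM and mean Egr3 from 4.28 ± 0.698 to 1.99 ± 0.468 FPKM (SD, n = 4 per diet). Both calls were lost when some single libraries were left out, as given with each gene. Junb was the second most abundant transcript of all tested genes and Nr4a1 the seventh, and neither differed between the diets beyond the spread of the libraries. Fos had its highest value in a high-fat library, with overlapping diets.

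The 250 bases before the transcription start are shown for 4 of the genes, Egr2 because it fell, and Fos, Jun and Nr4a1 as abundant members of the other families. The promoter windows used here, from RefSeq on GRCm38.p6, covered 8 of the 10 genes, with 12 windows in all. None was used for Egr1 and Egr3, which does not show that RefSeq lacks windows for them. Each sequence is written 5′ to 3′ along the gene's strand and ends at the base before the start. Capitals mark matches, on either strand, to a CArG box, a cyclic AMP response element (CRE, TGACGTCA), the short CRE motif (TGACG, which lies within the full CRE), an AP-1 site (TGANTCA), an EGR site (GCGNGGGCG) or an NBRE, the Nr4a1 response element (AAAGGTCA). The windows are chr10:67537619-67537868 on the plus strand for Egr2, chr12:85473640-85473889 on the plus strand for Fos, chr4:95052223-95052472 on the minus strand for Jun and chr15:101266596-101266845 on the plus strand for Nr4a1.
Egr2: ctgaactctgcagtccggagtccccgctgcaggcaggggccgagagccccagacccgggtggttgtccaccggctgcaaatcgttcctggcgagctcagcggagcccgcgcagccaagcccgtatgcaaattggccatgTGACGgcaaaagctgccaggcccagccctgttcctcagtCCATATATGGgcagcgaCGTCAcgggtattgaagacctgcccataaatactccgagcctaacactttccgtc
Fos: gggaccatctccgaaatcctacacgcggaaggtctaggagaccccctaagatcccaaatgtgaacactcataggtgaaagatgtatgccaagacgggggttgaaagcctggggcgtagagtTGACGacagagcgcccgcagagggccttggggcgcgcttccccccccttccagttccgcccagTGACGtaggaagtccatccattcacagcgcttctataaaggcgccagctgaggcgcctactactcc
Jun: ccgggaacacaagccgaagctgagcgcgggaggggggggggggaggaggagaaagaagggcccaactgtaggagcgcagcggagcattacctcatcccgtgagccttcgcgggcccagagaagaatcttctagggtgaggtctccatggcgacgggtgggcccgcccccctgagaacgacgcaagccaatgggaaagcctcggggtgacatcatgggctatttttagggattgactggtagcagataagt
Nr4a1: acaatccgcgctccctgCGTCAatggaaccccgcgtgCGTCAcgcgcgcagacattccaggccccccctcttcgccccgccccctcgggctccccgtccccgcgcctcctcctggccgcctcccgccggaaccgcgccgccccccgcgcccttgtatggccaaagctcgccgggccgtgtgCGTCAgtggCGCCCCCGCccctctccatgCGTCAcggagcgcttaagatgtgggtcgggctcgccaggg

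The Egr2 window shown, 1 of several for this gene, held a CArG box from 72 to 63 bases before the start. A short CRE motif lay on each side of it, at 111 to 107 and at 55 to 51 bases before the start. The windows at starts 67537870 and 67537930 overlap it and held the same matches. The window at start 67537566 held another CArG box and no short CRE motif, and the one at start 67535499 matched none of the motifs. Junb also had a window, which is not shown. Among all 32851 promoter windows of this length, 1.47% held a CArG box and 17.8% a short CRE motif. Fos held the short CRE motif at 129 to 125 and at 66 to 62 bases before its start. Nr4a1 held 4 short CRE motifs and an EGR site at 60 to 52 bases before its start, and 4.70% of all windows held an EGR site. Of the windows not shown, Fosb and Fosl2 also held an EGR site, at 50 to 42 and at 79 to 71 bases before the start. Fosb and Junb each held a short CRE motif. The Nr4a1, Fosb and Fosl2 windows had a GC content of 74.4%, 68.8% and 64.4%, beside a median of 52.4% over all windows. The Jun window matched none of the motifs. Over all windows, 1.55% held a CRE, 6.75% an AP-1 site and 1.34% an NBRE, and none of the members' 12 windows matched these. A match describes the letters of the window and does not show binding.

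The 8 libraries held 9004996 to 15752674 reads in genes, as recovered from the deposited values. H2 had the fewest reads but the most genes at 1 FPKM or more, 13663 against 10763 (N2) to 11905 (H3) in the others. H2 and N2 stood at opposite ends of the first principal component, which carried 28.2% of the variance. Between libraries of a diet, correlations of log2(FPKM + 1) were 0.972 to 0.978 on the normal diet and 0.957 to 0.983 on the high-fat diet. The ILC2 markers were present: Gata3, the lineage's defining transcription factor, was at 566 to 1145 FPKM, and Il1rl1, the IL-33 receptor, at 269 to 425 FPKM. In the list of ILC2 genes, 5 of 20 tested fell (Gata3, Il2ra, Il5, Zbtb16 and Lmo4) and 15 did not pass. The Gata3 call (log2 difference -0.59, adjusted p 0.0449, limma) was weak. Among fits that left out 1 library it was held only without N3, and it was lost after quantile normalization. In those fits Zbtb16 was held only without N3 or H2, Il2ra was lost without N1 or H3, and Il5 and Lmo4 were always held. With recovered reads scaled to total reads, 7 genes of the list were lower and 3 higher. In all, 328 of 11483 genes passed at an adjusted p under 0.05 (limma), 216 lower and 112 higher on the high-fat diet. After quantile normalization the split was 204 lower and 226 higher, and with recovered reads on the scale of total reads it was 356 lower and 985 higher.

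Within the high-fat diet, H2 had the lowest value for 8 of the 10 genes, all but Fosl2 and Jund. Within the normal diet, N2 had the highest value for 5 genes, Egr2, Egr3, Fos, Jun and Junb. The log2 differences between the diets are therefore also given without these libraries for each gene. The 10 genes together took 2.13% to 2.42% of the reads in the normal-diet libraries and 2.33% to 2.77% in the high-fat libraries.

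By mean level the order was Junb, Nr4a1, Fos, Jun, Egr1, Fosl2, Fosb, Egr2, Jund and Egr3. The ranges over the 8 libraries overlapped between the neighbours Fos and Jun, Egr1 and Fosl2, and Egr2 and Jund. No overlap was seen between Junb and Nr4a1, Nr4a1 and Fos, Jun and Egr1, Fosl2 and Fosb, Fosb and Egr2, or Jund and Egr3. FPKM is per length, and the gene lengths behind the deposited values came to between 24.4% (Fosl2) and 100% (Jund) of the exon bases in the GENCODE annotation on mm10, so the order between genes carries that uncertainty.

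**Figure D1:**
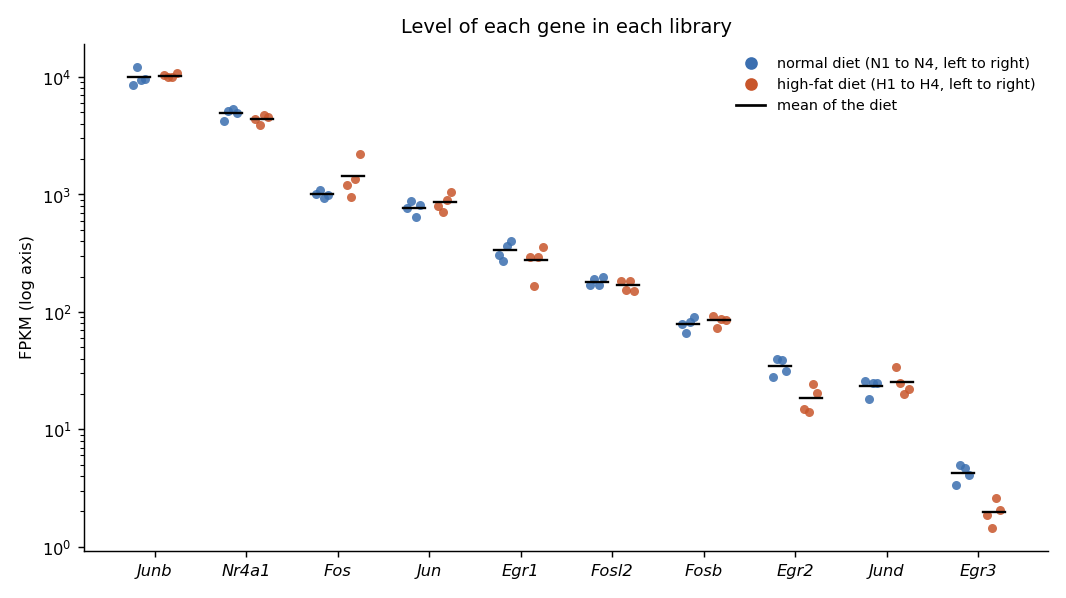
FPKM of each gene in each library on a log axis, with normal-diet libraries on the left and high-fat libraries on the right of each gene, and a bar at the mean of each diet. The diets do not overlap for Egr2 and Egr3, and they overlap for the other 8 genes.

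Egr2 (chr10:67535475-67542188 on mm10) encodes a zinc finger factor that, in T cells, is induced by antigen receptor signals and restrains activation. It stood at 27.7, 39.5, 39.1 and 31.3 FPKM in N1 to N4 and at 15.04, 14.2, 24.2 and 20.6 FPKM in H1 to H4. The lowest normal-diet library lay above the highest high-fat library. Its log2 difference was -0.88 (SE 0.19, 95% interval -1.28 to -0.48) on the log2(FPKM + 1) scale, with an adjusted p of 0.0202 (limma) and all 4 high-fat libraries below every normal-diet library. The exact two-sided permutation p was 0.0286, the smallest that 4 libraries against 4 can give. The reads behind these values numbered 352 to 1415 per library. In bulk samples, fewer cells with a transcript and less of it per cell cannot be told apart.

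The Egr2 call depended on single libraries while the direction held throughout. Without H2 the log2 difference was -0.77 (adjusted p 0.0259), without N2 it was -0.81 (adjusted p 0.0753), and without both it was -0.70 (adjusted p 0.0561). The adjusted p was also above 0.05 without N3 (0.0593) and without H1 (0.0648). With the factor carried in the deposited values divided out, the difference was -0.96 (adjusted p 0.0132).

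Egr3 (chr14:70077203-70082614) encodes a close relative of Egr2 and acts with it in lymphocytes. It had 3.38, 4.96, 4.66 and 4.10 FPKM in N1 to N4 against 1.88, 1.45, 2.58 and 2.06 FPKM in H1 to H4. As for Egr2, N1 was the lowest normal-diet library, H3 the highest high-fat library, and the diets did not overlap. The log2 difference was -0.82 (SE 0.19, 95% interval -1.22 to -0.42) with an adjusted p of 0.0288 (limma), with 4 of 4 high-fat libraries lower and an exact permutation p of 0.0286. Only 16 to 78 reads lay behind each Egr3 value. The pseudocount of 1 FPKM shrinks the difference of so low a gene, which was -1.08 with a pseudocount of 0.1.

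The Egr3 call was lost without N2 (adjusted p 0.0929), N3 (0.0720), N4 (0.0573), H1 (0.0734), H3 (0.0511) or H4 (0.0763). It was also lost without both N2 and H2, where the log2 difference was -0.67 (adjusted p 0.0858), and it was held without H2 (-0.73, adjusted p 0.0419). Recovered reads gave -0.87 (adjusted p 0.0926).

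Egr1 (chr18:34859823-34864984) is a widely induced EGR gene. Its values were 306, 272, 364 and 400.2 FPKM in N1 to N4 and 292, 165, 295 and 359 FPKM in H1 to H4. H2 was lowest and the other high-fat libraries lay within the normal-diet range. For Egr1 the log2 difference was -0.31 (SE 0.22, 95% interval -0.77 to 0.15, adjusted p 0.488). It was -0.08 without H2, -0.41 without N2 and -0.17 without both. Egr1 made up 85.9% to 91.9% of the summed FPKM of Egr1, Egr2 and Egr3 on the normal diet and 91.3% to 94.5% on the high-fat diet, and Egr2 made up 7.18% to 12.5% and 4.86% to 7.85%. Egr3 took 0.942% to 1.57% and 0.539% to 0.804%, the one EGR share without overlap between the diets. Without N2 and H2 the Egr2 share still overlapped, at 7.18% to 9.58% and 4.86% to 7.5%.

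Of the 10 genes, 2 were called and both were lower, where 2.86% of all tested genes were called and 1.88% were called lower. The 10 genes and the gene lists were chosen with earlier results of these data known. Their counts beside these shares are therefore a description and not a test. The same 2 genes had diets that did not overlap, against 11.1% of all tested genes and 6.76% in the lower direction. At an unadjusted p under 0.05 the same count of 2 was reached, and the count of genes called higher was 0 of 10, also at an unadjusted p under 0.05, beside 0.975% of all tested genes called higher (with recovered reads on the total-read scale, 2 were called higher). The median log2 difference of the 10 genes was -0.03, with 5 below and 5 above 0, beside -0.02 for all tested genes.

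**Figure D2:**
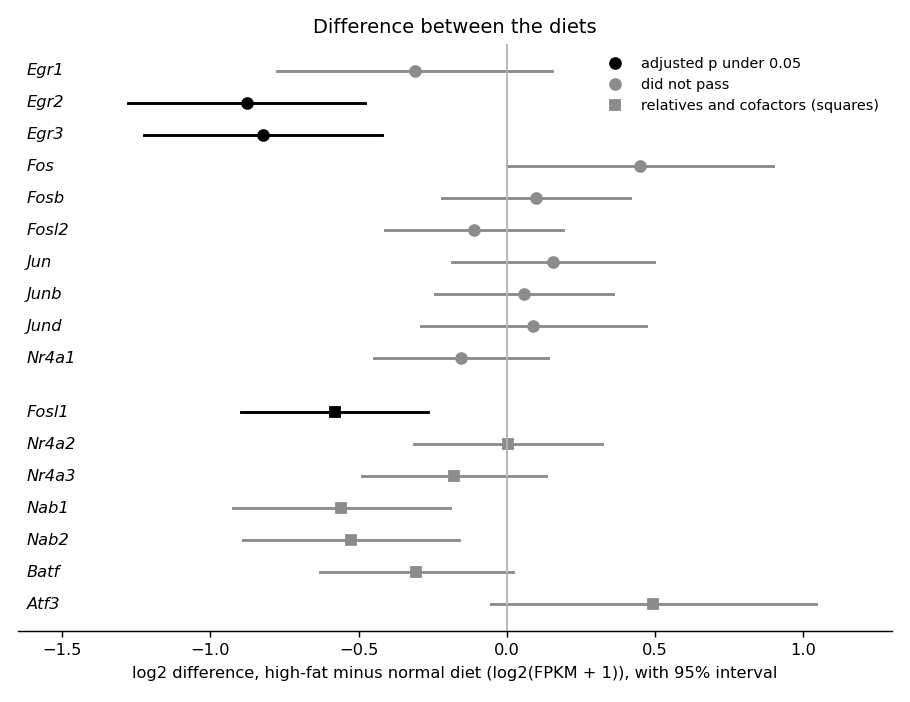
Log2 difference between the diets for the 10 genes (circles) and for relatives and cofactors (squares), with 95% intervals, black where the adjusted p was under 0.05. Egr2 and Egr3 lie at -0.88 and -0.82, and the interval of Fos starts at 0.00.

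Fos (chr12:85473890-85477273) encodes the FOS partner in AP-1 and is a classic serum response gene. It was at 1007, 1096, 932 and 983 FPKM in N1 to N4 and at 1198, 961, 1365 and 2231 FPKM in H1 to H4. H1, H3 and H4 were above every normal-diet library, and H2 was within the normal-diet range. Between the diets the log2 difference came to 0.45 (SE 0.21, 95% interval 0.00 to 0.90, adjusted p 0.276), with an exact permutation p of 0.114. Leaving out H4 brought it to 0.21 (adjusted p 0.573), and leaving out H2 brought it to 0.62 (adjusted p 0.0741). It was 0.49 without N2 and 0.66 without both H2 and N2, and neither passed.

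The call for Fos and Jun depended on the library scale. With recovered reads scaled to total reads (limma voom), Fos was higher by 0.63 (adjusted p 0.0392) and Jun by 0.40 (adjusted p 0.0259), where 6.25% of genes were called higher. On that scale the median of the genes of the first test shifted to 0.13, so relative to it Fos and Jun differed by less. With the same reads on the authors' library scale, Fos was at 0.47 (adjusted p 0.190) and Jun at 0.24 (adjusted p 0.339).

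Fosb (chr7:19302696-19310051), a FOS relative induced by the same stimuli, was at 78.2, 65.6, 82.5 and 91.0 FPKM in N1 to N4 and at 92.6, 73.1, 87.2 and 85.9 FPKM in H1 to H4. The diets overlapped, with a log2 difference of 0.10 (SE 0.15, adjusted p 0.793), which was 0.17 without H2, 0.01 without N2 and 0.08 without both. Fosl2 (chr5:32135801-32157842), which encodes FRA-2, was at 168, 190, 170 and 198 FPKM in N1 to N4 and at 185, 153, 184 and 151 FPKM in H1 to H4. H2 and H4 were the low libraries of the high-fat diet, and the log2 difference was -0.11 (SE 0.14, adjusted p 0.741), which became 0.06 after quantile normalization. It was -0.07 without H2, -0.09 without N2 and -0.04 without both.

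As a share of the summed FPKM of the 3 FOS genes, Fosl2 took 13.4% to 15.5% on the normal diet and 6.11% to 12.9% on the high-fat diet, without overlap. Fos took 77.3% to 81.1% and 81.0% to 90.4%, and Fosb 4.86% to 7.16% and 3.48% to 6.28%, and these overlapped. Without N2 and H2 the Fos shares were 77.3% to 80.4% and 81.2% to 90.4%, which did not overlap.

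Jun (chr4:95049034-95052222) encodes the main AP-1 partner of FOS. It was at 760, 877, 639 and 806 FPKM in N1 to N4 and at 793, 710, 892 and 1052 FPKM in H1 to H4, with the diets overlapping and H4 highest. The log2 difference was 0.16 (SE 0.16, 95% interval -0.19 to 0.50, adjusted p 0.665). It was 0.24 without H2, 0.22 without N2 and 0.31 without both, and none of these passed. An antisense gene, Junos, overlaps Jun. The libraries were not strand-marked, so reads of Jun and Junos cannot be told apart.

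Junb (chr8:84974484-84978718), whose product often opposes JUN, was at 8525, 12160, 9485 and 9692 FPKM in N1 to N4 and at 10337, 9910, 10094 and 10814 FPKM in H1 to H4. N2 was the highest and N1 the lowest library, and the 4 high-fat libraries lay between them. Its difference on the log2 scale was 0.06 (SE 0.14, 95% interval -0.24 to 0.36, adjusted p 0.878), and its sign was negative after quantile normalization (-0.06), with the factor divided out (-0.03), with reads on the authors' scale (-0.03) and without N1 (-0.01). It was 0.08 without H2, 0.16 without N2 and 0.18 without both. Prdx2 overlaps Junb on the other strand, at 43.4 to 80.3 FPKM.

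Jund (chr8:70698949-70700616), the JUN gene usually expressed without a stimulus, was at 25.6, 18.3, 24.7 and 24.8 FPKM in N1 to N4 and at 33.7, 24.8, 20.05 and 21.9 FPKM in H1 to H4. N2 was low and H1 high, and the diets overlapped. A log2 difference of 0.09 (SE 0.18, adjusted p 0.848) turned negative without N2 (-0.02), without H1 (-0.06) and without both N2 and H2 (-0.02), and stayed at 0.09 without H2. The antisense gene Gm11175 overlaps Jund. Junb held 91.6% to 93.5% of the summed FPKM of the 3 JUN genes on the normal diet and 91.0% to 93.1% on the high-fat diet, Jun 6.29% to 8.16% and 6.67% to 8.85%, and Jund 0.140% to 0.275% and 0.182% to 0.302%.

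Nr4a1 (chr15:101254269-101274795), also known as Nur77, was at 4231, 5152, 5351 and 4954 FPKM in N1 to N4 and at 4371, 3913, 4785 and 4586 FPKM in H1 to H4. The ranges overlapped, with H2 lowest. The log2 difference was -0.16 (SE 0.14, 95% interval -0.45 to 0.14, adjusted p 0.601), and it was 0.04 with reads scaled to total reads. Without H2 it was -0.10, without N2 -0.13 and without both -0.08. Nr4a2 and Nr4a3, its relatives, had log2 differences of 0.00 (adjusted p 0.995) and -0.18 (adjusted p 0.565), and Nr4a2 turned negative without N4 (-0.07), H1 (-0.07) or H4 (-0.03).

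Ratios within a library do not depend on its scale, apart from the factor carried in the deposited values. Fos over Egr2 was 23.9 to 36.3 in the normal-diet libraries and 56.5 to 108 in the high-fat libraries, and Nr4a1 over Egr2 was 130 to 158 and 198 to 291. Junb over Egr2 was 243 to 310 and 418 to 700.0. None of these 3 ratios overlapped between the diets. Egr2 over Egr1 (0.0782 to 0.145 and 0.0515 to 0.0859) and Egr3 over Egr2 (0.119 to 0.131 and 0.10 to 0.125) overlapped. Nr4a1 over Fos was 4.20 to 5.74 and 2.06 to 4.07, without overlap. Of the 9 ratios that each gene forms with the others, 8 were without overlap for Egr3, 6 for Egr2, 5 for Fos, 4 for Nr4a1, 3 for Fosl2 and for Jun, 2 for Egr1, Fosb and Junb, and 1 for Jund. Over all 45 pairs, 18 ratios were without overlap, and with N2 and H2 left out this count was 23. Egr2 over Egr1 and Egr3 over Egr2 overlapped in that case too. The share of such ratios among pairs of other genes was not computed, so these counts have no background. Many of the ratios contain Egr2 or Egr3, whose own levels did not overlap, and fewer libraries make a lack of overlap easier to reach.

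**Figure D3:**
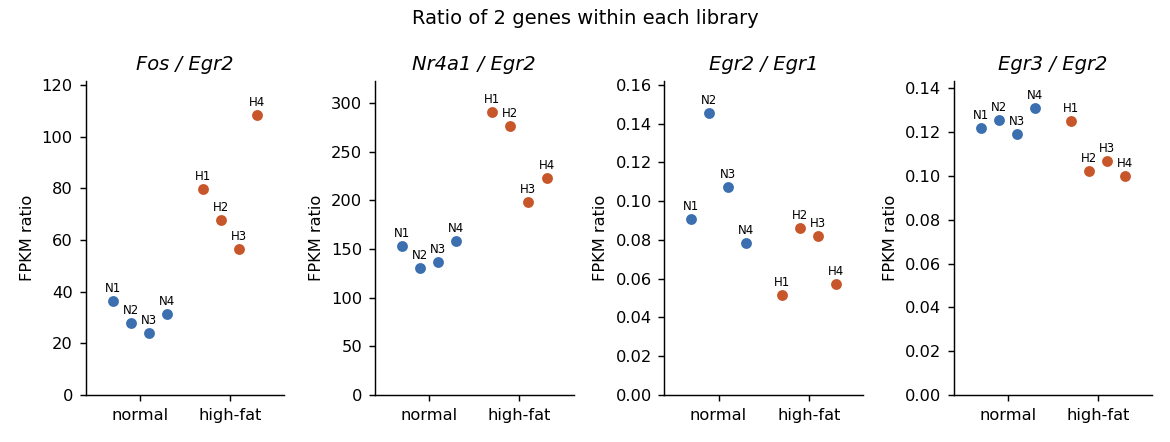
FPKM ratio of 2 genes in each library, with normal-diet libraries in blue and high-fat libraries in orange. Fos over Egr2 and Nr4a1 over Egr2 separate the diets, while Egr2 over Egr1 and Egr3 over Egr2 overlap.

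Egr2 and Egr3 were the most alike pair of the 10 genes over the 8 libraries, with a root mean square difference of 0.113 in centred log2(FPKM + 1), followed by Fosl2 and Nr4a1 at 0.134. Each gene's own spread about its mean, on the same measure, was 0.510 for Egr2 and 0.450 for Egr3. It was only 0.134 for Fosl2 and 0.142 for Nr4a1, so their distance does not show a shared pattern. A small distance is easier to reach for genes with little spread, such as Junb (0.139) and Fosb (0.156). Outside the 10 genes, among 5531 genes in the upper part of the expression range, the most alike to Egr2 was Hspa8, a constitutive heat shock chaperone, at 0.180. Hspa8 had a mean of 3455 ± 557 FPKM in N1 to N4 against 1673 ± 200.1 FPKM in H1 to H4 (SD, n = 4 per diet; log2 difference -1.04, adjusted p 0.00296). The most alike to Egr3 was Ubald1 at 0.142, to Egr1 Ak6 at 0.116 and to Fos Apba3 at 0.135. Jun was closest to Rbm10 at 0.0607, Junb to Lcp1 at 0.0444 and Nr4a1 to Degs1 at 0.0594. Fosb was closest to Gas5 at 0.0879, Fosl2 to Clasp1 at 0.0683 and Jund to Rpl6 at 0.113.

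Among relatives of the 10 genes, 3 of 15 tested fell and 12 did not pass, where 1.88% of all tested genes were called lower. The median log2 difference of the relatives was -0.14, beside -0.02 for all tested genes. Those that fell were Mafg, a small MAF protein that pairs with other leucine zipper factors (-0.82, adjusted p 0.0104), Jdp2, a repressor of AP-1 (-0.74, adjusted p 0.0345), and Fosl1, which encodes FRA-1 (-0.58, adjusted p 0.0485). The Jdp2 and Fosl1 calls were lost in 5 and 7 of the 8 fits that left out 1 library, with adjusted p-values up to 0.128 and 0.133. Batf, an AP-1 factor that works with IRF4, was at -0.31 (adjusted p 0.306), and Atf3, a stress-induced family member, was at 0.49 (adjusted p 0.327). With recovered reads on the total-read scale the Atf3 adjusted p was 0.0215, and the list held 2 lower genes and 1 higher. Egr4, listed at 0 to 0.481 FPKM, was below the filter.

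The EGR corepressors and reported EGR targets held 1 gene that fell and 1 that rose among 20 tested, with a median of -0.09. Over all tested genes, 1.88% were called lower and 0.975% higher. The balance in this list depended on the scaling, with 2 lower and 5 higher from recovered reads on the total-read scale and 1 lower and 3 higher after quantile normalization. Id3, an inhibitor of E proteins that EGR factors induce in lymphocytes, rose from 1.42 ± 0.682 to 8.68 ± 4.35 FPKM (log2 difference 1.94, adjusted p 0.00431), and Nrgn, a calmodulin-binding protein, fell (-1.08, adjusted p 0.00821). The corepressors Nab1 and Nab2, themselves EGR-induced, were at -0.56 (adjusted p 0.0946) and -0.53 (adjusted p 0.112), and Nab1 passed with the factor divided out (adjusted p 0.0284) and with reads on the authors' scale (adjusted p 0.0236).

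The counts in the next lists stand beside 2.86% of all tested genes called, 1.88% lower and 0.975% higher. In lists this short a single called gene weighs heavily, so the counts are not read as results about a pathway. Upstream of the 10 genes, 2 of 28 tested genes of the MAPK pathway fell, Braf (-0.84, adjusted p 0.0115) and Map2k3 (-0.64, adjusted p 0.0262), both kinases, with a list median of -0.10. Among 16 SRF, ternary complex and CREB factors, Elk4 fell (-0.65, adjusted p 0.0288), with a median of -0.12. Among 23 genes of calcium and NFAT signalling, Nfatc1 fell (-0.70, adjusted p 0.0202), with a median of -0.22. Of 19 genes of MAPK feedback, Dusp14, a phosphatase, rose (1.36, adjusted p 0.00330) and Errfi1, an inhibitor of EGF receptor signalling, fell (-1.22, adjusted p 0.00212), with a median of 0.03. Of 38 other immediate early genes, Gadd45g (-0.75, adjusted p 0.0428) and Fosl1 fell, with a median of -0.08. With 1 library left out, the calls of Map2k3, Elk4, Nfatc1 and Gadd45g were lost in 6, 5, 3 and 6 of 8 fits, with adjusted p-values up to 0.0895, 0.116, 0.0794 and 0.138, and those of Braf, Dusp14 and Errfi1 were held in all 8. These directions also depended on the scaling. With recovered reads on the total-read scale, 3 genes of the MAPK pathway were lower and 4 higher, 3 of the other immediate early genes were lower and 4 higher, 1 of MAPK feedback was lower and 3 higher, and 1 of the SRF, ternary complex and CREB factors was lower and 1 higher. After quantile normalization, 1 of the other immediate early genes was lower and 2 higher. For that list limma called 0 without the filter and 0 without the trend and robust options, where 11 and 7 genes had an unadjusted p under 0.05. With the replicate block, limma called 0 genes of the MAPK pathway, with 6 at an unadjusted p under 0.05.

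In the list of genes induced by tissue dissociation and stress, 3 of 23 tested fell and 1 rose, beside 1.88% and 0.975% of all tested genes. Those that fell were Hspa8 (-1.04), Dnaja1 (-0.73, adjusted p 0.00939) and Dnajb1 (-0.63, adjusted p 0.0185), all chaperones or their partners. Hspb1 rose (1.54, adjusted p 0.0178, limma). It stood at 0.111 to 1.25 FPKM in N1 to N4 and at 1.53 to 5.96 FPKM in H1 to H4, with 1 to 59 reads. It met the filter of 1 FPKM in 4 libraries only through its high-fat values, so its rise carries little weight. The list median was 0.03. With recovered reads on the total-read scale, 3 were lower and 4 higher, and those higher included Fos and Jun, which belong to this list. With 1 library left out, the Hspb1 call was lost in 4 of 8 fits and the Dnajb1 call in 2, with adjusted p-values up to 0.0733 and 0.0626. The summed level of the list was 21211 to 25910 FPKM in N1 to N4 against 18172 to 24177 FPKM in H1 to H4, overlapping, with H2 lowest and N2 highest. Its part in the Egr2 and Egr3 difference was not tested.

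Markers of other cells moved as follows beside Egr2 and Egr3. Of 13 tested T cell markers, 0 passed and 5 were higher at an unadjusted p under 0.05, and 5 were called higher with recovered reads on the total-read scale and 3 after quantile normalization. The summed level of the whole list was 810 to 1101 FPKM in N1 to N4 against 867 to 1651 FPKM in H1 to H4. Mast cell and basophil markers summed to 4430 to 9171 and 2087 to 8733 FPKM, with H2 lowest. Of 13 endothelial markers only 5 were tested, and 3 of these were higher (Vwf, Esam and Fabp4), beside 0.975% of all tested genes called higher. With 1 library left out, the Esam call was held in every fit. The Vwf call was held only without N3 or H1, and the Fabp4 call only without H2. The sums of the endothelial list, 19.0 to 25.7 and 39.5 to 156 FPKM, did not overlap. Of 15 macrophage markers only 2 were tested. Their list summed to 4.77 to 10.4 and 10.9 to 14.3 FPKM, without overlap, while Adgre1, which encodes the defining marker F4/80, went the other way, with a range of 0.984 to 1.80 FPKM in N1 to N4 against 0.0952 to 0.797 FPKM in H1 to H4. With recovered reads Adgre1 was the 1 macrophage marker of 6 that was called, and it was lower. The sums of B cell, NK cell and ILC1, granulocyte and stromal markers overlapped between the diets. No marker on any list was at 0 in all 8 libraries, and the part of these cells in the result was not tested.

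**Figure D4:**
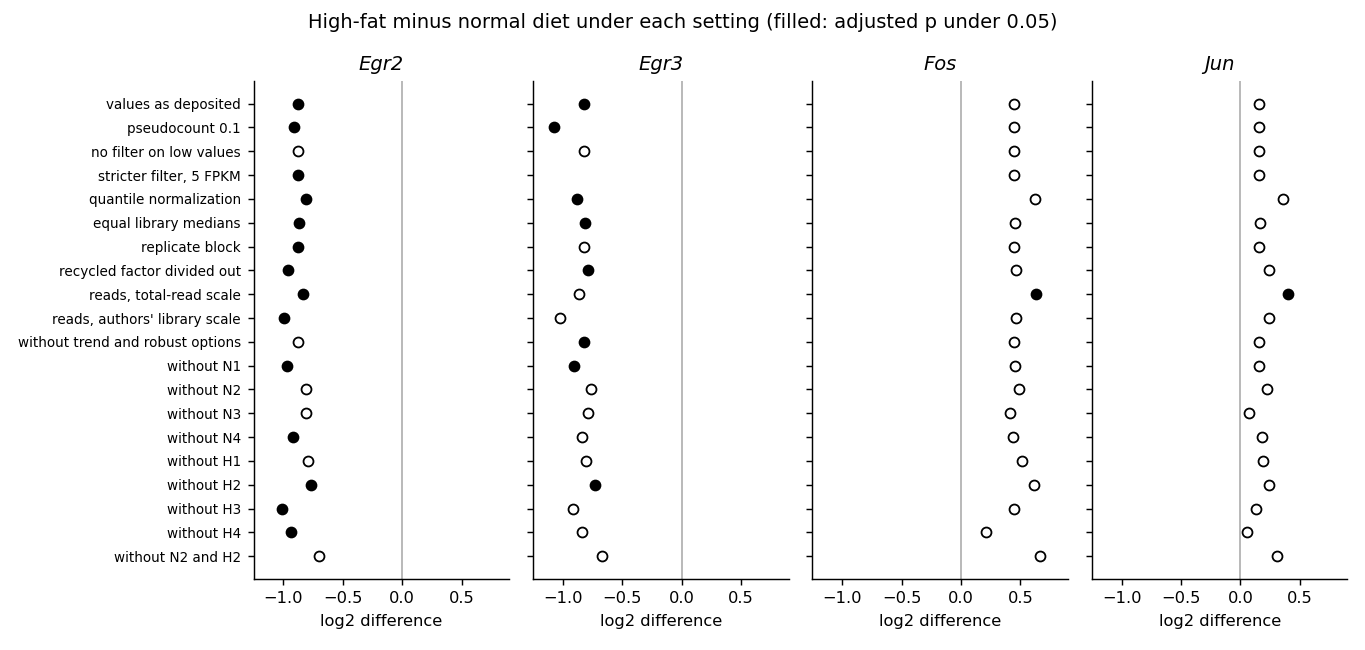
Log2 difference of Egr2, Egr3, Fos and Jun under each setting and with each library left out, filled where the adjusted p was under 0.05. Egr2 stays between -1.01 and -0.70 and Egr3 between -1.08 and -0.67, while Fos ranges from 0.21 to 0.66 and Jun from 0.05 to 0.40.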

How the data were processed

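RNA of sorted ILC2s was measured in 8 libraries, 4 per diet, as full-length cDNA made with a SMART-Seq kit. HISAT2, Cufflinks and the build mm10 are named in the submitters' processing notes. For tool versions and the annotation, nothing is given in the sources used here. Per the file headers, the authors deposited FPKM, 1 per gene and library. They depart from plain FPKM: 14605 genes have values below 0 (none of the 10 genes) and were left out of the fits on FPKM, and each value carries a factor between 0.863 and 1.18 that repeats every 10 rows of gene identifiers. The fits on recovered reads did not leave these genes out. They covered 15753 genes with 10 or more reads in at least 4 libraries, so their counts rest on another set of genes. The factor shifts the log2 differences of the 10 genes by -0.08 to 0.09.

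Values were taken as log2(FPKM + 1), and genes at 1 FPKM or more in at least 4 libraries were tested with limma 3.58.1 in R 4.3.3, with diet as the only term and the trend and robust options. Two-sided p-values were adjusted by Benjamini-Hochberg over all tested genes at 0.05. The fit was tested on simulated data with 200 changed genes. It recovered 67% of the 2-fold and 99% of the 4-fold changes, and 6.21% of its calls were false. The simulation gave every gene the same variation beyond counting noise, so these shares need not hold for the real libraries. Whole reads were recovered for 100% of 24107 genes above 0 (tolerance 0.001 reads), and none of 1000 control genes with the next row's factor gave whole reads. The control genes were all above 0 in every library and were searched over a shorter range of gene lengths, so the comparison is not strictly like for like. The recovered reads entered limma voom as an alternative. The authors' library divisor was 0.742 (N2) to 1.02 (H2) of the recovered total.

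Alternatives changed the pseudocount (0.1), the filter, the scaling, the replicate block, the factor, the reads and the libraries. The 10 genes and the gene lists were chosen with earlier results of these data known. All 10 genes are named; from each pathway list, up to 4 called genes with the largest change are named, and 8 relatives always are. The called ILC2 and endothelial genes and Adgre1 fall outside this rule and were named after their values were seen. Promoter sequences are from RefSeq on GRCm38.p6.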

Additional observations from a re-analysis of the deposited data

Results flagged for a closer look

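For 33 named genes, the highest and lowest library of each diet were compared with the other 3, by the gap to the nearest library over the group's range; chance marks about 1 in 20 groups, and 5 of 66 were marked. N2 had Jund at 18.3 FPKM against 24.7 to 25.6 in the other normal-diet libraries. The other marked values were Nrgn in H1 at 107 FPKM (63.2 to 69.8 in the others), Map2k3 in H3 at 259.7 FPKM (198 to 199), Map2k3 in N2 at 365 FPKM (318 to 324) and Errfi1 in N2 at 97.6 FPKM (62.4 to 67.4).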

How the results depend on the processing

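The count of called members was 2 with a pseudocount of 0.1, quantile normalization, equal library medians and the factor divided out. It was 3 with recovered reads on the total-read scale (Egr2 lower, Fos and Jun higher, Egr3 not called), 0 without a filter on low values (Egr2 adjusted p 0.0809, Egr3 0.0871), 1 under the stricter filter, where Egr3 was not tested, 1 with reads on the authors' library scale (an alternative chosen after seeing the data), 1 without the trend and robust options (Egr3, Egr2 at 0.0519) and 0 without both N2 and H2. With each library left out it ranged from 0 to 2. Libraries with the same number did not deviate together (correlations -0.071, -0.255, -0.072 and 0.078, none best with its own number). With 4 libraries per diet this check cannot exclude that the numbers pair the samples, and the labels do not say. With the replicate block the count of called members was 1 (Egr2 adjusted p 0.0427, Egr3 0.0792), and that block gave 191 genes in all against 328. Over all genes the count was 130 without a filter, 571 with the factor divided out, 1341 with recovered reads, 744 with reads on the authors' scale and 129 to 536 with each library left out. Signs turned for Fosl2 (0.056) and Nr4a3 (0.0015) after quantile normalization, for Junb after quantile normalization (-0.0602), with the factor divided out (-0.0325) and with reads on the authors' scale (-0.0319), and for Nr4a1 with reads on the total scale (0.0396). With each library left out, Junb ranged from -0.0133 to 0.158, Jund from -0.0573 to 0.184 and Nr4a2 from -0.0731 to 0.0672, and Jund was at -0.0222 without both N2 and H2. The causes were not tested. Of 323 list counts under these settings, 219 stayed within 1.5 times and 104 moved. Depth limits Egr3 most, with 16 to 78 reads per library.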
